A study of Homo sapiens with 4 samples.

Results

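RNA polymerase II (Pol II) peaks far from protein-coding genes were described in U2OS, a human osteosarcoma cell line. A peak entered this set when its summit lay more than 50000 bp outside the span of every RefSeq protein-coding gene, on chromosomes 1 to 22 and X. This gave 4048 of 36345 peaks in the control list (11.1%, 95% Wilson interval 10.8 to 11.5) and 2838 of 26387 in the knockdown list (10.8%, 10.4 to 11.1), or 6886 of 62732 in all. They are called distal peaks here. Their number in each list follows from the distance rule and the authors' peak calling.

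The study used chromatin immunoprecipitation and sequencing (ChIP-seq) to compare Pol II in cells given a control siRNA with Pol II in cells given an siRNA against NKAP. NKAP encodes a nuclear protein known to bind RNA and to take part in splicing and in repression at Notch target genes. Both groups were U2OS cells with no other change named in the labels, transfected for 48 h with RNAiMAX, fixed with 1% formaldehyde for 10 min and immunoprecipitated with the same Pol II antibody (Active Motif 91151). Each group was 1 ChIP library, so no difference between the groups has a replicate check, no test between them was made and the lists do not show how far NKAP was depleted.

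Pol II outside protein-coding genes is found at several kinds of place. Long noncoding RNA (lncRNA) genes and the host genes of many microRNAs have promoters of their own, and active enhancers bind Pol II and give rise to short-lived enhancer RNAs. Sequence far from genes also holds pseudogenes, ribosomal RNA genes, segmental duplications and satellite repeats near centromeres, where a read often has several possible places.

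Promoter sequences are shown for distal peaks that overlap a window at the start of a noncoding gene. A window reached from 250 bases before to 50 bases after a gene's start and came from RefSeq on GRCh38.p14. The 7 shown were picked with their values known. They are the host genes MIR222HG, MIRLET7A1HG and MIR17HG, the window under the highest distal fold (LOC105373487), 2 of the 3 highest folds at genes covered in the control alone (LOC105373948 and HRAT17) and the highest at a gene covered in the knockdown alone (LINC01731). They lie at chrX:45770218-45770517 (minus strand), chr9:94166008-94166307 (plus), chr13:91347437-91347736 (plus), chr2:94947342-94947641 (plus), chr2:236743490-236743789 (minus), chr7:112995594-112995893 (minus) and chr1:148281174-148281473 (minus). Each is written 5′ to 3′ on its gene's strand, and capitals mark every match, on either strand, to 6 motifs. These are the TATA box (TATAAA), an AP-1 motif (TGANTCA), the CCAAT box, a GC box (GGGCGG), a TEAD motif (GGAATG) and a RUNX motif (TGTGGT). Matches may overlap.
MIR222HG: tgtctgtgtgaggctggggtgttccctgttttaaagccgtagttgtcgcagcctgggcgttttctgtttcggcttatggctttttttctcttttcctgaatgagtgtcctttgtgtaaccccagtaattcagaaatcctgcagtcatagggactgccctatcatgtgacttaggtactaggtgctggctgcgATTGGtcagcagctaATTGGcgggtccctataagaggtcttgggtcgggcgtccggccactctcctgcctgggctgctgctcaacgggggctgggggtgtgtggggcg
MIRLET7A1HG: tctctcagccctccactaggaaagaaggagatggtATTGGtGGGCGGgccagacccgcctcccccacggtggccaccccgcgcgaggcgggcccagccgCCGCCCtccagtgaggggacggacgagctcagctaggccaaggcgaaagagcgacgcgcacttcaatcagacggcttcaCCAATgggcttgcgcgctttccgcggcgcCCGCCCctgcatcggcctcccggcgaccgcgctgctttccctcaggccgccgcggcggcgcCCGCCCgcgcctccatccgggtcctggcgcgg
MIR17HG: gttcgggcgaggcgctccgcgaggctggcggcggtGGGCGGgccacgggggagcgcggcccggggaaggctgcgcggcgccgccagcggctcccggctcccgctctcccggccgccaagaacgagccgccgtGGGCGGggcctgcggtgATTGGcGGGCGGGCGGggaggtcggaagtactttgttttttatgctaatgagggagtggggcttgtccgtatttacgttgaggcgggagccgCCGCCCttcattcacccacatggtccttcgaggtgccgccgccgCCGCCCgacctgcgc
LOC105373487: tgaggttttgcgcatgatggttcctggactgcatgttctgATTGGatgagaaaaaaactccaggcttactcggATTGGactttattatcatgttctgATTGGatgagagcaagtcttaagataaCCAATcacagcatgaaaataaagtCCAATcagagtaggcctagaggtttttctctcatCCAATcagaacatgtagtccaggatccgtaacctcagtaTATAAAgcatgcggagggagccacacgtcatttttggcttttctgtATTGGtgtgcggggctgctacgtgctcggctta
LOC105373948: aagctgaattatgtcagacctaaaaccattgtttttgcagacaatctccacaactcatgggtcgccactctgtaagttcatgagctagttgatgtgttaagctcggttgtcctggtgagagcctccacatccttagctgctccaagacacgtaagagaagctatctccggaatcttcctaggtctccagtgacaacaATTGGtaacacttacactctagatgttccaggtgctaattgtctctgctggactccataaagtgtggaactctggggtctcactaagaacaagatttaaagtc
HRAT17: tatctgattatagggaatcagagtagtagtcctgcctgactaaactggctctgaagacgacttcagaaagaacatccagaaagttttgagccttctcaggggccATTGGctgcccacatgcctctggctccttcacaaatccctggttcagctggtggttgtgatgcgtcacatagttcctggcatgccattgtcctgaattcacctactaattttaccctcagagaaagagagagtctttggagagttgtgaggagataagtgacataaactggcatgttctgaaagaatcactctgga
LINC01731: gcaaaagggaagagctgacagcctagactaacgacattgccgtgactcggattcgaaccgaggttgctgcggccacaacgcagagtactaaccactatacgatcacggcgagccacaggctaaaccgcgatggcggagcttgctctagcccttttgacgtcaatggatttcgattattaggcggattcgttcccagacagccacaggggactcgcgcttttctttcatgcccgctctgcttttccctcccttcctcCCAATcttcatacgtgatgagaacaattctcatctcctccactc

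The 7 windows differ in composition as well as in Pol II. The MIRLET7A1HG and MIR17HG windows hold 38 and 42 CpG dinucleotides and 72.7% and 73% G or C, with 4 and 6 matches to the GC box. LOC105373487 is poorer in G and C (44%) and holds 1 TATA box match and 7 matches to the CCAAT box. Its peak had a control fold of 54.7 and a knockdown fold of 41.4. The fold is the caller's enrichment of the summit, (reads + 1)/(background + 1), where the knockdown reads are first multiplied by 0.926. The HRAT17 window, covered at a fold of 16.8 in the control alone, holds 2 CpG dinucleotides. LINC01731, covered at a fold of 8.83 in the knockdown alone, holds 21. A match describes letters in a window and is not a bound site.

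Over all windows, those under distal peaks of both lists had a G and C content near that of all promoters. The promoter table held windows for 11383 of the 39124 noncoding entries, and distal peaks covered the windows of 217 genes: 149 in both lists, 48 in the control alone and 20 in the knockdown alone. The median G and C content was 60.3% in the 165 windows covered in both lists, 46% in the 49 covered in the control alone and 54.5% in the 26 covered in the knockdown alone. All 34961 promoters of the table had a median of 58.7%, and the 3788 distal noncoding promoters under no distal peak had 43.3%. The GC box was found in 46.7% of windows covered in both lists, 18.4% and 42.3% of those covered in the control or the knockdown list only, 45% of all promoters and 8.03% of the uncovered distal ones. TGANTCA was found in 18.8%, 18.4% and 30.8% (8 of 26) of the covered windows, against 7.68% of all promoters and 12.6% of the uncovered distal ones. TATAAA was found in 10.9%, 16.3% and 3.85% of the covered windows and 11.5% of all promoters, and CCAAT in 40.6%, 36.7% and 26.9% against 34.6%. GGAATG was found in 16.4%, 22.4% and 7.69% of the covered windows, against 14% of all promoters. TGTGGT was found in 14.5%, 18.4% and 15.4%, against 13.1%. The groups of covered windows were set by peak calls in 1 library each, so these shares are descriptions. The peak that covers a window in 1 list alone can itself overlap a peak of the other list, as at LINC01731.

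Mature microRNAs are shown because several of the widest and strongest distal peaks lie on their host genes. A microRNA pairs with its targets mainly through its seed, bases 2 to 8, printed in capitals. The sequences are from RefSeq, 5′ to 3′, grouped by shared seed, and were chosen after the peaks near them were seen.
hsa-miR-221-3p: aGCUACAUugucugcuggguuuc
hsa-miR-222-3p: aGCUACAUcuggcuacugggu
hsa-miR-29a-3p: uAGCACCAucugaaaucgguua
hsa-miR-29b-3p: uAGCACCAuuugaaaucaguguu
hsa-let-7a-5p: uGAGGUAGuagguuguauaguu
hsa-let-7d-5p: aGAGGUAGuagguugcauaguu
hsa-let-7f-5p: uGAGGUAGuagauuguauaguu
hsa-miR-17-5p: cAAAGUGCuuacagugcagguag
hsa-miR-20a-5p: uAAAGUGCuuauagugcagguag
hsa-miR-18a-5p: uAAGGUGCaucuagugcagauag
hsa-miR-19a-3p: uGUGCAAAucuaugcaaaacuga
hsa-miR-19b-3p: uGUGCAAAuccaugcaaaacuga
hsa-miR-92a-3p: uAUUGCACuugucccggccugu
hsa-miR-30a-5p: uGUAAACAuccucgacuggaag

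MicroRNA hairpins of chromosome 8 were not examined. Of 1558 microRNA hairpins examined, 38 lay within 5000 bp of a distal peak: 30 in both lists, 7 in the control alone and 1 in the knockdown alone. A distal peak covered 10 of them. MIR221 and MIR222, which share the seed GCUACAU, lie at the low-coordinate end of MIR222HG on chromosome X. The control list covered MIR221 with a peak of 4547 bp and fold 17.7 (37 reads), and the knockdown list with one of 760 bp and fold 7.12 (17 reads). MIR222 lay 267 bp from a control peak of fold 6.02 and under a knockdown peak of fold 7.52. MIR29A and MIR29B1, which share the seed AGCACCA, were covered in both lists. The folds were 7.94 and 7.19 at MIR29A, and 4.67 and 6.33 at MIR29B1, in the control and the knockdown list.

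The hairpins from MIR17 to MIR92A1, a cluster on chromosome 13 known for its role in cell proliferation, were covered in neither list. They began 1063 bp beyond a control peak of fold 20.5 (43 reads) and 1140 bp beyond a knockdown peak of fold 21.3 (45 reads), both on the start of MIR17HG. The let-7 hairpins of chromosome 9 lie inside MIRLET7A1HG, whose start carried folds of 27.1 and 29.2, and had weak peaks near them. MIRLET7A1 lay 569 bp from a control peak of fold 5.44 and 2885 bp from a knockdown peak of fold 6.41. MIRLET7D was covered in the control list (fold 5.35) and lay 1 bp from a knockdown peak of fold 6.41. MIR30A was covered in the knockdown list (fold 10.8, 2363 bp wide) and lay 159 bp from a control peak (fold 5.01, 621 bp wide). MIR99A and MIRLET7C on chromosome 21 lay 1481 and 2220 bp from a control peak of fold 5.35, while the nearest knockdown peaks were 24538 and 23796 bp away. MIR4652 on chromosome 7 was the 1 hairpin near a knockdown peak only, 2376 bp from a peak of fold 6.9.

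The libraries were described from the lists. Reads at the summits were recovered from fold and p-value as the best-fitting whole number. They met the −log10 p within 0.1% for 100% of the peaks of both lists. They had a median of 18 and 19 reads and a lowest value of 8 in each list. The knockdown pileup had been scaled by 0.926, a value found by the same fit, and its depth was estimated at 0.858 times that of the control library. Of 10 mesenchymal and osteoblast markers, 7 had a peak at a gene end in both lists, among them VIM, COL1A1 and CDH2. The others, COL1A2, RUNX2 and TWIST1, had none in either list. Of the markers of other cell types, 0 of 5 hepatocyte, 0 of 5 lymphocyte, 3 of 5 neuron (SYN1, SNAP25 and SYT1) and 1 of 5 keratinocyte markers (KRT10) had one.

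Distal peaks were sparse for the length of sequence beyond the distance limit. That sequence made up 38.5% of the chromosomes (1167 of 3029 Mb) and held 3.47 control and 2.43 knockdown peaks per Mb, against 17.3 and 12.6 in the rest. Assembly gaps, where no peak can lie, were not taken out of these lengths. Distal peaks were also weaker than all other peaks together, though not than peaks in gene interiors in the control list. Their median fold was 6.16 in the control list, against 6.76 for all other peaks and 11 for peaks at gene ends (within 1000 bp of either end of a protein-coding gene). In the knockdown list it was 6.52, against 7.57 and 9.84. Peaks in the interior of protein-coding genes had 5.9 and 6.57, below the distal value in the control list and close to it in the knockdown list. The median distal peak was 557 bp wide with 17 summit reads in the control, and 492 bp with 17 in the knockdown. The distal peaks covered 3.52 of 38.6 Mb of control peaks and 2.06 of 23.9 Mb of knockdown peaks. The median summit lay 149692 bp (control) and 150908 bp (knockdown) from the nearest protein-coding gene, and 606 and 458 summits lay more than 500000 bp away.

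At the limit itself, 2 of the control peaks just outside it lay 50046 and 50051 bp from SATB1 and PRSS23, with folds of 5.6 and 12. The 3 just inside it lay 49986, 49969 and 49962 bp from H2BC13, RAPGEF2 and PLXNC1, with folds of 6.4, 5.78 and 6.07. For the knockdown list the 3 outside lay at 50102, 50102 and 50111 bp (folds 6.9, 5.58 and 6.81), and the 3 inside at 49966, 49950 and 49907 bp (7.63, 7.44 and 2.92). The farthest 3 summits of each list lay 4461795 to 4828009 bp from OR11H1, on chromosome 22.

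The share of distal peaks overlapped by the other list was below that of all other peaks. A knockdown peak overlapped 46.6% of distal control peaks by at least 1 bp (1885 of 4048, 45 to 48.1), beside 54.2% of all control peaks. A control peak overlapped 70.9% of distal knockdown peaks (2012 of 2838, 69.2 to 72.5), beside 82.8% of all knockdown peaks. All peaks but the distal ones had 55.2% and 84.3%. By class, control peaks in gene interiors (37.2%) and 1000 to 5000 bp from a gene (36.6%) had lower shares than distal ones, and those at gene ends (79.8%) and 5000 to 50000 bp away (51.9%) higher ones. The knockdown shares of these classes, in the same order, were 76.2%, 74.8%, 93.8% and 75.9%, all above the distal share. Counting neighbours up to 5000 bp apart as well, the distal shares were 62.2% and 82.6%, against 79.2% and 92.8% of all other peaks. Intervals cover counting error only, and neighbouring peaks are not independent.

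**Figure D1:**
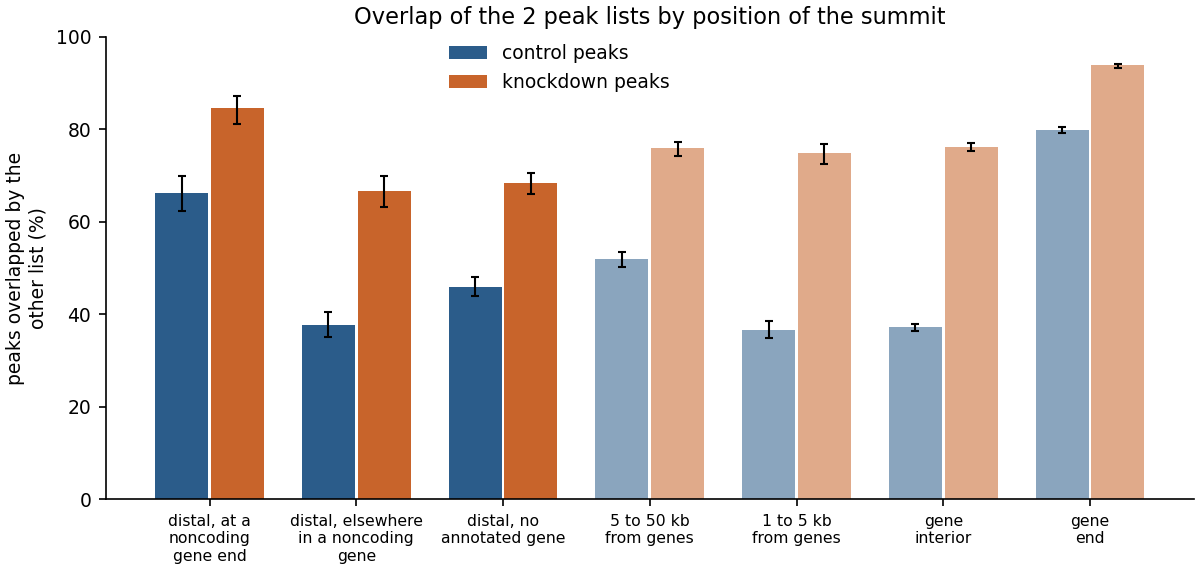
Share of peaks (y axis, %) overlapped by the other list, by position of the summit (x axis), for control (blue) and knockdown (orange) peaks, with 95% Wilson intervals as bars. The 3 distal groups (left, dark) range from 37.7% to 66.2% of control and from 66.7% to 84.5% of knockdown peaks, and peaks at protein-coding gene ends (right) reach 79.8% and 93.8%.

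Overlap rose with strength, so each list was ranked by −log10 p and cut into 10 groups of equal peak number for comparison. A group spans a range of strength, from 54.5 to 593 in the strongest of the control list. Width was not matched. Median widths were 557 and 492 bp at distal peaks, against 702 and 685 bp at all others. In the control list distal peaks then differed from all others by −1.92 percentage points (−3.32 to −0.509) and were lower in 5 of 10 groups. This difference was small and moved with the settings. Its interval reached above 0 with groups of fold (−0.607), with 50% of the shorter peak shared (−1.04) and beyond 100000 bp (−1.36). It was −4.49 with equal numbers of peaks and −7.84 with neighbours up to 1000 bp apart counted. The 4 weakest groups had higher distal shares, such as 21.6% against 16.8% in the weakest. The 5th to 9th had lower ones, such as 84.2% against 93.7% in the 8th. In the strongest group all 146 distal control peaks were overlapped. In the knockdown list the difference was −8.85 points (−10.5 to −7.19), with lower distal shares in 10 of 10 groups.

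Set against single classes within the same strength groups, distal control peaks differed from peaks at gene ends by −12 points (−13.7 to −10.4). From peaks in gene interiors they differed by 3.75 (2.25 to 5.25). They differed from peaks 5000 to 50000 bp from a gene by −2.75 points (−4.62 to −0.874) and from peaks 1000 to 5000 bp away by 0.566 (−1.48 to 2.62). Distal knockdown peaks differed from the same 4 classes, in this order, by −16.1, −6.16, −3.27 and −6.53 points. Control and knockdown peaks thus gave different signs for gene interiors.

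**Figure D2:**
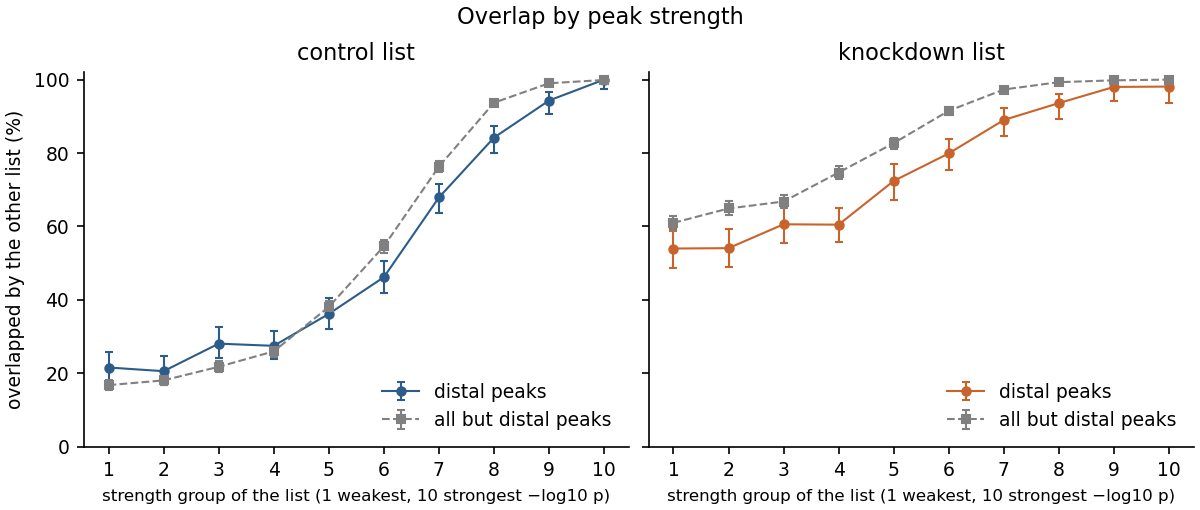
Share of peaks overlapped by the other list (y axis, %) in 10 groups of rising −log10 p (x axis), for distal peaks (coloured circles) and all others (grey squares), with 95% Wilson intervals. In the control list the lines cross between the 4th and the 5th group, and in the knockdown list the distal line stays below, from 54% against 61% in the weakest group to 98.1% against 100% in the strongest.

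The distal peaks were of 3 kinds by the noncoding genes around them, a split made after values were seen. Noncoding here means every RefSeq entry that is not protein-coding, pseudogenes and immunoglobulin segments included. In the control list 622 summits (15.4%) lay within 1000 bp of an end of such a gene, 1252 elsewhere inside one, and 2174 (53.7%) at no annotated gene. In the knockdown list these were 522 (18.4%), 763 and 1553 (54.7%). Summits inside a noncoding gene made up 40.6% of distal control peaks (39.1 to 42.1) and 38.4% of distal knockdown peaks (36.6 to 40.2), mostly in lncRNA genes (34% and 30.8%). Among peaks 5000 to 50000 bp from protein-coding genes they made up 28.2% and 30.6%.

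Peaks at noncoding gene ends were the strongest of the 3 kinds and had the highest overlapped share. Their median fold was 7.45 in the control and 7.88 in the knockdown list, against 6.02 and 6.41 elsewhere in noncoding genes and 6.11 and 6.45 at no annotated gene. The overlapped share was 66.2% (62.4 to 69.8) of the control and 84.5% (81.1 to 87.3) of the knockdown peaks at noncoding gene ends. It was 37.7% and 66.7% elsewhere in noncoding genes, and 46% and 68.4% at no annotated gene. At matched strength, peaks at noncoding gene ends exceeded those elsewhere in noncoding genes by 12.1 points (8.36 to 15.9) in the control and 6.79 (3 to 10.6) in the knockdown list. They exceeded those at no annotated gene by 9.24 (5.72 to 12.8) and 8.32 (4.85 to 11.8). Against the ends of protein-coding genes they differed by −2.38 (−5.6 to 0.836) and −6.5 (−9.45 to −3.54). Leaving out peaks of high background, described further on, gave 63.6% and 83.1% at noncoding gene ends.

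By gene, 991 lncRNA genes of 18177 carried a distal summit inside or within 1000 bp: 587 in both lists, 294 in the control alone and 110 in the knockdown alone. Transcribed pseudogenes had 124 of 1246, with 105 in both lists. Other pseudogenes had 124 of 15212, with 59 in both. These splits were made for distal peaks only and have no share over all peaks beside them.

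The highest distal folds were found in both lists. LOC105373487, a noncoding gene on chromosome 2, had a peak of 5290 bp with 141 reads (fold 54.7) in the control list and of 3117 bp with 92 reads (41.4) in the knockdown list. The summits lay 84 and 36 bp from the gene's start. At LOC105371703 on chromosome 17, 204532 bp from WSB1, the control peak had 154 reads and a fold of 51.8, and the knockdown peak 98 reads and 22.9. At LOC101930665, also on chromosome 17, the values were 116 reads and 48, and 90 reads and 43.3. All 3 summits of the control list lay within 341 bp of an end of a noncoding gene.

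Among the other control peaks of highest fold, some lay at no annotated gene. One, 89929 bp from LMNTD1 on chromosome 12, had a fold of 48.9 in the control and 28.4 in the knockdown list. Another, on chromosome 21, had 34.6 and 17.6. Others lay in WASH3P, a WASH family pseudogene (43.2 and 14.1), at RNVU1-18, a variant U1 small nuclear RNA gene (34.4 and 26.3), in LOC105373949 (34 and 11.2) and in ZMIZ1-AS1, an antisense gene (33.2 and 17.8). WASH3P and RNVU1-18 have near-identical copies, so the placing of their reads is uncertain. The lists differ in depth and scaling, so the folds are set side by side with no ratio.

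The knockdown list added 6 regions to its 10 highest folds. LINC00973, a lncRNA gene on chromosome 3, had a fold of 34.1 (78 reads) in the knockdown and 16.3 (80 reads) in the control list. The background at the summit was 1.15 and 3.98. MIRLET7A1HG had 29.2 (62 reads) and 27.1 (107 reads). A peak 142 bp from an end of the pseudogene FRG1HP on chromosome 9 had 27.9 and 16.4, and LOC124904143 on chromosome 17 had 27.5 and 29.9. Regions 385577 bp from BRD1 and 88690 bp from ARID1B had 27.3 and 22.9, and 27.2 and 32.8.

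Other peaks were strong in 1 list with none in the other within 5000 bp. In the control list the highest fold of these was 18.8 (40 reads), on chromosome 2 from 236743029 to 236747456, 163737 bp from ACKR3. The nearest knockdown peak was 21352 bp away, and the peak at LOC105373949, next along, was in both lists. HRAT17 (fold 16.8, 35 reads), LINC02864 on chromosome 18 (15.9, 33 reads) and regions on chromosomes 7 (14.5, 31 reads) and 5 (14.4, 43 reads) followed. In the knockdown list the highest was 19 (40 reads), on chromosome 11 from 134851725 to 134852129, 439675 bp from B3GAT1 and 88525 bp from the nearest control peak. The next were on chromosome 9 (12.7, 28 reads), chromosome 1 (11.8, 26 reads), chromosome 1 at 5359 bp from LINC01705 (11.5, 23 reads) and chromosome 3 (10.7, 23 reads). In median terms the distal peaks not overlapped by the other list, at any distance from its peaks, were weak. Their fold was 5.67 in the control list (14 reads) and 6.02 in the knockdown list (14 reads), against 7.64 and 6.96 for the overlapped.

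Of the 5 widest distal peaks of each list, most lay on or beside lncRNA genes. An exception was a knockdown peak of 7565 bp (fold 7.19), which covered MIR29A and had its summit at no annotated gene. At MIR222HG the knockdown list had 1 peak of 21949 bp with fold 26.9 (57 reads), where the control list had 6 peaks, of which the highest had fold 24.8 (52 reads). In and at the gene, distal peaks covered 19395 bp in the control and 25445 bp in the knockdown list. At LINC-PINT, a lncRNA known as a target of p53, 1 knockdown peak of 21303 bp (fold 19.5, 62 reads) met 4 control peaks, the widest of 11516 bp (fold 16.4). The covered length was 29816 and 35661 bp, with 15 and 20 summits. At LINC00973 it was 22050 and 23681 bp, with 7 summits in each list. All 7 overlapped a peak of the other list, beside 46.6% and 70.9% of all distal peaks. LOC105374020 on chromosome 3 had a control peak of 9307 bp (fold 23.5, 52 reads) and a knockdown peak of 7329 bp (13.8, 27 reads). At LINC01186 on chromosome X the control list had 1 peak of 9531 bp (fold 22.1, 65 reads), and the 4 knockdown peaks that met it had folds of up to 5.92. A joined or split peak follows from the caller's gap rule as well as from Pol II, and which of them set these widths was not tested.

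**Figure D3:**
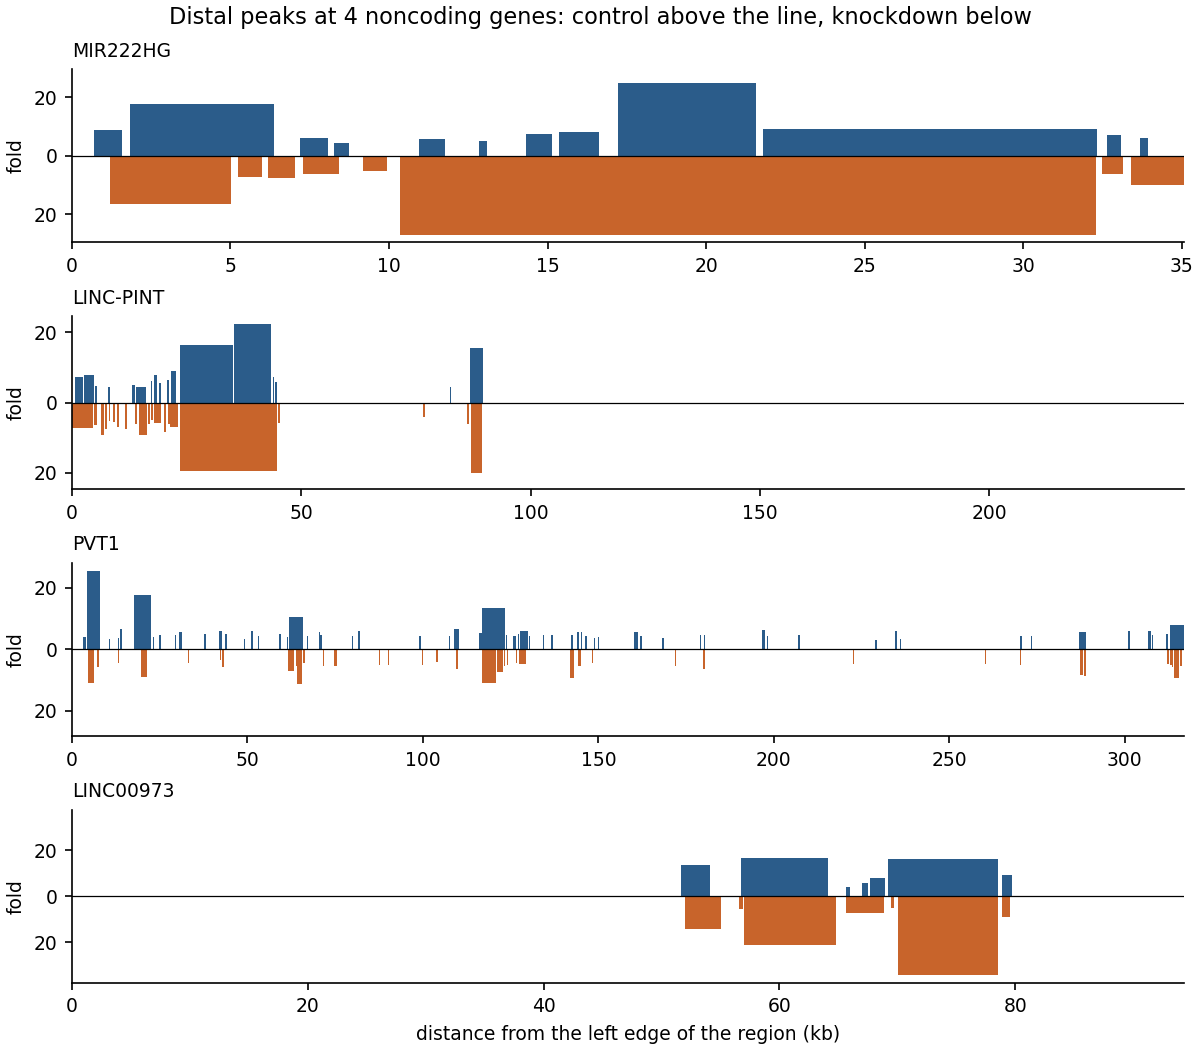
Distal peaks at MIR222HG, LINC-PINT, PVT1 and LINC00973, each drawn with 5000 bp on either side: distance from the left edge (x axis, kb) against fold (y axis), control peaks above the line and knockdown peaks below it. The highest control and knockdown folds are 24.8 and 26.9 at MIR222HG, 22.4 and 19.9 at LINC-PINT, 25.6 and 11.3 at PVT1 and 16.6 and 34.1 at LINC00973.

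A list of noncoding genes known from cancer and mesenchymal cells was checked by name. Of 51 names, 50 matched a noncoding entry and 18 carried a distal summit: 13 in both lists, 3 in the control alone and 2 in the knockdown alone. PVT1, the lncRNA gene next to MYC, had the most distal summits of any noncoding gene, 59 in the control and 37 in the knockdown list, covering 49896 and 26818 bp. Its highest fold was 25.6 (83 reads) in the control and 11.3 in the knockdown list. The other list overlapped 16 of the 59 and 23 of the 37. Beside this, 46.6% and 70.9% of all distal peaks and 54.2% and 82.8% of all peaks were overlapped. The median background at its summits was 2.96 and 2.25 reads, beside medians of 1.82 and 1.26 at all distal peaks. The lowest distal backgrounds were 1.14 and 0.89.

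CASC21 and CCAT1, on the same chromosome as PVT1, had more knockdown than control summits. The first had 1 (fold 15.5) and 5 (highest 10.8), and the second had 0 and 4 (highest 6.67). LINC01705, on chromosome 1, had 0 and 3 (highest 7.83). MIR193BHG (2 summits, highest fold 7.47), LINC00460 (1, 6.07) and CASC15 (2, 6.07) had distal summits in the control alone. The strongest distal summit of each of the last 4 genes had 12 to 15 reads. Counted at any distance from protein-coding genes, MIR193BHG had 6 control and 2 knockdown peaks.

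MIR100HG, the host of MIR100 and of a let-7 gene, had 9 and 8 summits with highest folds of 8.41 and 8.37. MIR17HG had 1 in each list. DLEU2, host of a tumour-suppressive microRNA pair, had 3 in each list (highest 26.2 and 16.7). At any distance from protein-coding genes it had 8 control and 4 knockdown peaks. LINC01117 had 1 distal summit in each list (18.9 and 13.3). PURPL, another p53-induced lncRNA, had 10 and 5 (10.2 and 11.4), and FIRRE 3 and 2 (6.07 and 6.41). CYTOR had 10 and 2 (16.4 and 12.7) and MIR4435-2HG 17 and 6 (21 and 12.5). The last pair are near-identical copies on chromosome 2, so reads may have been split or placed between them.

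Among all noncoding genes, those with most distal summits after PVT1 were largely duplicated. They were the immunoglobulin kappa locus IGK (27 and 21), the readthrough LINC01297-DUXAP10-NBEAP6 (27 and 14), DUXAP8 (21 and 15), DUXAP10 (24 and 11), DUXAP9 (19 and 8), LINC-PINT, and DANT1 and DANT2, which overlap at a macrosatellite on chromosome X (15 and 16, 15 and 18). LOC105370777 on chromosome 15 had 20 and 4, of which 4 and 4 were overlapped, beside 46.6% and 70.9% of all distal peaks. The DUXAP genes are copies of 1 another, and the placing of their reads is uncertain. The top folds were 30.5 and 17.6 at DUXAP10, 20.7 and 9.68 at DUXAP8, and 19.9 and 14.4 at DUXAP9.

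Joined into loci where summits lay within 10000 bp, the 6886 peaks made 2862 loci. Both lists had a summit in 1439 of them (50.3%, 48.4 to 52.1), the control list alone in 1041 and the knockdown list alone in 382. Peaks of other classes were not joined this way, so these counts have no share over all peaks beside them. The control list also held more distal peaks, 4048 against 2838. Single peaks made 1179 loci, while 54 loci of 10 or more peaks held 1061 peaks (15.4%). The chromosome 9 locus from 43310246 to 43347871, at no annotated gene, was among the largest, with 15 and 18 peaks and highest folds of 11.7 and 10.8. The largest loci of 1 list were small. In the control list these were 9 peaks on chromosome 19 from 27754405 to 27773911, 9 on chromosome X from 58197387 to 58216353, 6 on chromosome 5 at LOC124901019, 5 at DISC1FP1 on chromosome 11 and 5 at LOC102724465 on chromosome 15. Their highest folds were 6.37, 7.94, 7.54, 12.6 and 7.94. In the knockdown list they were 6 peaks at REXO1L1P and REXO1L8P on chromosome 8, a repeated gene family (highest fold 2.88, median background 17.5 reads), and 4 loci of 3 peaks. Of these 4, LINC01705 had a highest fold of 7.83, a region on chromosome 10 6.9, one on chromosome 2 9.84 and one on chromosome 4 3.37 with a median background of 32 reads.

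The locus of most peaks was unlike the others. On chromosome 1 from 143184801 to 143276081, with no annotated gene, it held 42 control and 43 knockdown peaks. The median was 326 reads at the summit on a background of 154 in the control list, and 316 reads on 127 in the knockdown list. The lowest fold of the distal set lay here, 1.23 with 456 reads in the control and 1.25 with 448 reads in the knockdown list. The second of this kind, on chromosome 10 from 42066285 to 42113384, held 21 and 22 peaks. Its median background was 83.6 and 21.1, and its median reads were 295 and 81. Reads and background were thus near each other in the lists on chromosome 1 and apart on chromosome 10.

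Backgrounds above 5 reads, a threshold chosen after values were seen, were more frequent in distal peaks than in others. They were found at 127 distal control peaks (3.14%, 2.64 to 3.72) and 0.672% of the other control peaks, and at 141 distal knockdown peaks (4.97%, 4.23 to 5.83) and 1.12% of the others. Their median fold was 3.58 and 3.87, and the other list overlapped 85.8% and 83% of them. Of all peaks with such a background, 36.9% and 34.8% were distal. Without these peaks the distal overlap was 44.5% in the control and 69% in the knockdown list.

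The highest reads of these loci lay close to a bound. With 1 read counted per position and strand, a pileup of fragments as long as the smallest peak (229 and 225 bp) cannot pass 458 and 450 reads. The highest summits had 457 and 448 reads, and 20 control and 17 knockdown distal peaks had over 400. Outside the distal set the highest summits had 368 and 281 reads. How the authors treated duplicate reads is not given in the sources used here, and its part in these values was not tested.

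**Figure D4:**
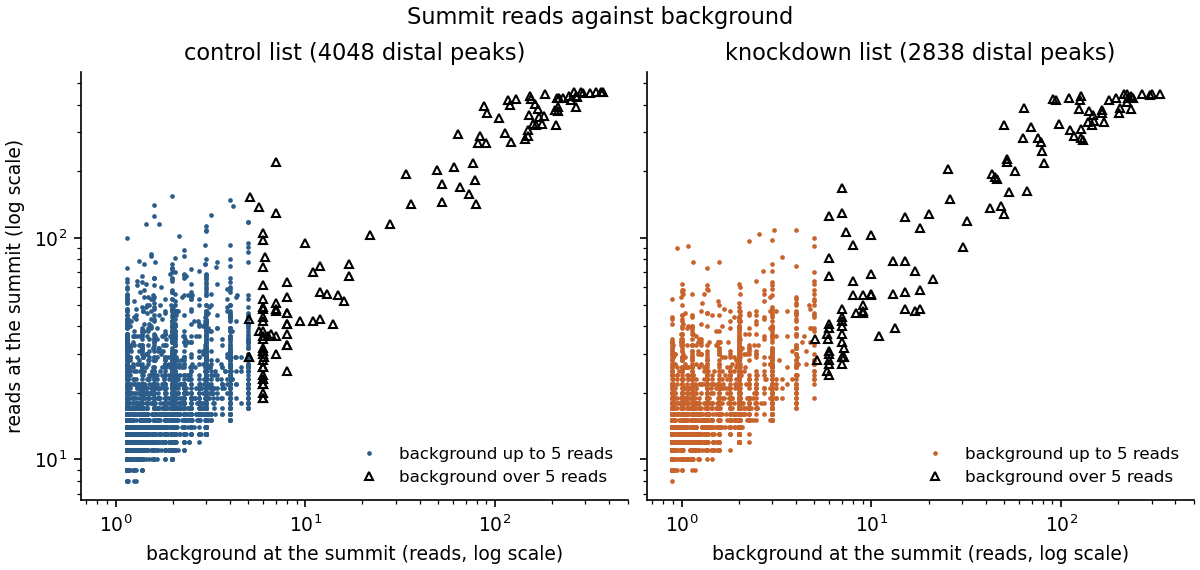
Reads at the summit (y axis, log scale) against background at the summit (x axis, log scale) for each distal peak of the control list (left) and the knockdown list (right), with peaks of more than 5 background reads as open triangles. Most peaks lie between 8 and 100 reads on a background near 1, and the triangles rise to 457 and 448 reads on backgrounds of up to 370 and 331.

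Ribosomal RNA genes, which are transcribed by RNA polymerase I, carried 20 distal control and 18 distal knockdown summits, all on chromosome 21. RNA45SN2 had 9 control summits (highest fold 7.03) and 6 knockdown summits (15.2). RNA45SN3 had 7 of each (6.13 and 18.1), and RNA45SN1 4 and 5 (5.01 and 11.6). The median background at their summits was 3.42 and 4.29, 2.99 and 2.7, and 4.08 and 3 reads. These units are near-identical, so reads may be placed at any of them.

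The ratio of knockdown to control peaks ranged more widely over chromosomes at distal peaks than elsewhere. Over all chromosomes there were 0.701 distal knockdown peaks per distal control peak, and 0.729 among the other peaks. For distal peaks the ratio ran from 0.364 on chromosome 19 (33 and 12 peaks), 0.469 on chromosome 18 and 0.506 on chromosome 4 to 0.888 on chromosome 16 and 0.978 on chromosome 9 (230 and 225). For the other peaks it lay between 0.668 and 0.784 on all 23 chromosomes. Distal peaks are fewer, so their ratios vary more by counting alone, and whether chromosomes differ beyond that was not tested. The distal share of a chromosome's peaks was lowest on chromosome 19 (1.32% and 0.688%) and highest on chromosome 21 (26% and 25%).

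**Figure D5:**
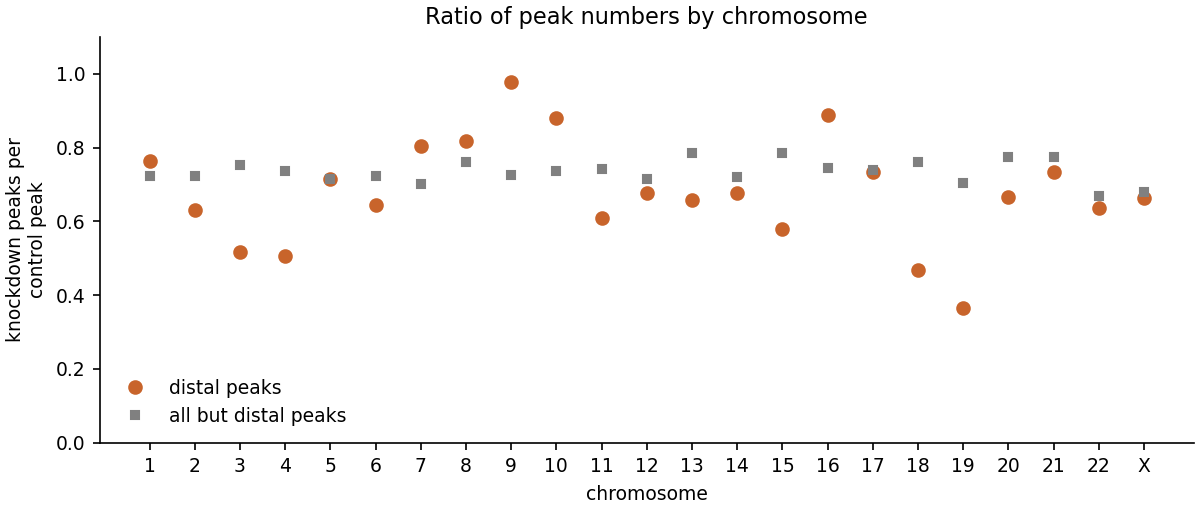
Knockdown peaks per control peak (y axis) on each chromosome (x axis) for distal peaks (circles) and for all others (squares). The squares lie between 0.668 and 0.784, and the circles between 0.364 on chromosome 19 and 0.978 on chromosome 9.

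The protein-coding gene nearest to a distal peak was counted in 6 gene lists, as a position and not as a target. MYC was the nearest gene of 74 distal control and 52 distal knockdown peaks, more than any other gene, and most of the immediate early and AP-1 list (90 and 69 peaks) came from it. JUN had 5 and 5 (highest folds 25.9 and 14.8), KLF4 6 and 7 and KLF6 2 and 3. Osteoblast and mesenchymal regulators were nearest to 48 and 53 peaks. This was the 1 list with more knockdown than control peaks. SOX9, the chondrocyte regulator, had 12 and 20, and without SOX9 the list had more control than knockdown peaks. RUNX2, the master regulator of osteoblasts, had 5 and 5 (23.7 and 11.5), HMGA2 8 and 7 and TBX3 6 and 6. The overlapped shares in this list were 64.6% of control and 73.6% of knockdown peaks.

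Matrix and adhesion genes were nearest to 34 control and 14 knockdown peaks. CDH2, the N-cadherin gene, had 5 and 0, between 977125 and 988032 bp away, and COL6A3 had 7 and 5. Genes of TGF-beta and BMP signalling had 27 and 14, among them SMAD6 with 7 and 2 and ID2 with 5 and 1. The list of YAP/TAZ and matricellular genes had 17 and 13, with TGFB2 at 7 and 6 and CCN2 at 3 and 4. Notch genes had 7 and 2: JAG1 4 and 1 and DLL1 3 and 1. Of the control peaks, 29.4% were overlapped in the matrix list, 29.6% in the TGF-beta and BMP list, 28.6% in the Notch list, 37.8% in the immediate early list and 52.9% in the YAP/TAZ list, beside 46.6% of all distal control peaks. Of the knockdown peaks, 78.6%, 71.4%, 100%, 68.1% and 92.3% were overlapped in the same order, beside 70.9% of all distal knockdown peaks. Many of these peaks share a locus and are not independent.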

How the data were processed

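Pol II ChIP-seq peaks of 2 libraries were analysed, 1 for each siRNA; the 2 input samples were not used here. The submitters' processing notes name MACS2 2.1.0, Bowtie 1.1.2, Trimmomatic 0.33 and bcl2fastq 2.17, on build hg38. No settings, nor the library taken as background, are given there. The authors called peaks per sample. Each deposited list is in the narrowPeak layout and gives a position, a score, the fold enrichment (a ratio), the −log10 p and q-values and the summit place. The deposited values were summarised within each list. Values of the 2 lists were set side by side, with no test between them and no ratio of folds. The lowest deposited −log10 q-values were 3.01 and 3.02, so Pol II below that threshold is not seen.

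Reads and background at each summit were recovered from fold and p-value. The knockdown background is in units scaled by 0.926. Genes came from a RefSeq table of GRCh38.p14 with 19974 protein-coding genes and no strand or exons, and promoter and microRNA sequences from RefSeq tables that are not complete. MicroRNAs of chromosome 8 were left out. Peaks overlapped when they shared 1 bp or more. Counts by locus, noncoding gene, promoter window and microRNA hairpin were made for distal peaks only, with no share over all peaks. Shares have 95% Wilson intervals, and strength was compared in 10 groups weighted by the distal peaks. The members, lists and tests were chosen with earlier results of these data known. Named regions were, for each list, the 10 of highest fold, the 5 of highest fold with none in the other list within 5000 bp, the 5 widest, the 3 farthest from genes and 3 on either side of the limit, with the 10 largest loci, the 5 largest of each list alone, listed noncoding genes with a summit and the 10 with most summits; 2 named regions are not reported here. Scripts used Python 3.11.15, pandas 2.3.3, numpy 2.4.6, SciPy 1.17.1 and matplotlib 3.10.9, and were tested on simulated data. The alternatives tried were equal list sizes, a stricter q-value, other distances, overlap rules, strength groups and joins, and, after the data were seen, no high backgrounds.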

Additional observations from a re-analysis of the deposited data

Results flagged for a closer look

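Peaks on sequences other than chromosomes 1 to 22 and X entered no comparison. The control list held 2218 of them, and the knockdown list held 1526.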

How the results depend on the processing

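With equal numbers of strongest peaks the overlapped share was 56% of distal control and 62.8% of distal knockdown peaks, and the difference at matched strength in the control list was −4.49 points. With 50% of the shorter peak shared, the shares were 43.8% and 66.5%. With a peak within 1000 bp counted, they were 54.5% and 78.4%, and the difference −7.84. Without backgrounds over 5 reads, an alternative added after seeing the data, the shares were 44.5% and 69%. Beyond 100000 bp there were 2690 and 1889 distal peaks. Beyond 25000 bp, 38.6% of distal control peaks lay in a noncoding gene. Loci joined within 50000 bp were shared in 56.5%. The control difference stayed negative under all 8 alternatives, but its interval reached above 0 with 10 groups of fold (−0.607, −2.08 to 0.871), with 50% of the shorter peak shared (−1.04, −2.41 to 0.332) and beyond 100000 bp (−1.36, −3.06 to 0.342). The knockdown difference lay between −10.1 and −7.45 in these 8. No paired analysis was possible because each group holds 1 ChIP library. The summits held 8 reads or more, so weaker Pol II was not detectable at this depth.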
